A study of Mus musculus with 32 samples.

Results

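The muscle acetylcholine receptor and the genes that a muscle fibre turns on when it loses its nerve were examined in mouse quadriceps as a set of 9 genes. They were chosen by name: the receptor subunit genes Chrna1, Chrnb1, Chrnd, Chrne and Chrng, the receptor kinase Musk, the adhesion molecule Ncam1, the transcription factor Runx1 and the sodium channel Scn4a. All 9 were found among the 53801 gene IDs of the tables, and the TPM of each gene ID was compared over 8 groups of mice. TPM is the unit of transcript abundance that StringTie gives, scaled for transcript length and for the total of the library, so levels of different genes can be set side by side.

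Quadriceps came from wild-type (WT) mice and from mice homozygous for a knockout allele of Col6a2 (Col6a2-/-), at 5 and 25 weeks of age and of both sexes, with 4 mice and 4 libraries in each of the 8 groups. Col6a2 encodes a chain of collagen VI, a protein of the matrix around muscle fibres, and the series title asks how that collagen bears on TGFβ in skeletal muscle. Per the labels, the allele Col6a2tm1(KOMP)Vlcg was made in C57BL/6N and crossed for 5 generations to C57BL/6J, so both genotypes share that mixed background. WT and Col6a2-/- mice came from heterozygous parents, no group received a treatment, and the allele was carried in every tissue. RNA came from cryosections of frozen whole muscle, so fewer cells of a type and less RNA per cell cannot be told apart. Col6a2 was at 6.60 to 51.2 TPM in the WT libraries and at 0 to 0.171 TPM in the Col6a2-/- libraries. Among the lists of cell type markers, that of muscle fibres had the highest sum in every library. Its 10 genes summed to between 24177 and 42102 TPM, out of a library total of 1000000 TPM.

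At the neuromuscular junction the motor nerve releases acetylcholine, which opens a receptor made of 5 subunits and so depolarises the fibre. In fetal muscle the receptor holds the gamma subunit, which the epsilon subunit replaces as innervation matures. When a fibre loses its nerve or its electrical activity, receptor genes that had been confined to the nuclei under the synapse are switched on along its whole length, together with Musk, Ncam1 and Runx1. Myogenic factors such as myogenin act on many of these genes through E-boxes in their promoters, and the epsilon promoter is known for an N-box that serves synaptic expression.

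Promoter sequences are shown for 4 of the genes, since they carry the E-boxes and the N-box just named. RefSeq promoters (GRCm38.p6) were matched for 7 of the 9 genes, in 8 windows because Runx1 has a pair of start sites. Chrnd and Ncam1 had no entry. Each line gives the 250 bases before the RefSeq start site, 5′ to 3′ on the strand of the gene. The whole window of Chrng, of Scn4a and of the proximal Runx1 start lies inside the gene as annotated in the deposited data. For these the RefSeq start is thus not the start of the gene whose TPM was measured. Capitals mark E-boxes (CANNTG) and the N-box (CCGGAA), both searched on both strands, and no matches overlap. The windows are chr2:73580339-73580588 on the minus strand for Chrna1, chr1:87205561-87205810 on the plus strand for Chrng, chr11:70619195-70619444 on the minus strand for Chrne and chr4:58285712-58285961 on the plus strand for Musk.
Chrna1: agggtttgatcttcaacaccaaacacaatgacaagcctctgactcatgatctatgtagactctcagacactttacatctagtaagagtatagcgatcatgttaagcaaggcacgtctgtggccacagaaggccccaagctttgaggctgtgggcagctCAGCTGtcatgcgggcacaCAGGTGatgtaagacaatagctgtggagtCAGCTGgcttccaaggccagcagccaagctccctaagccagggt
Chrng: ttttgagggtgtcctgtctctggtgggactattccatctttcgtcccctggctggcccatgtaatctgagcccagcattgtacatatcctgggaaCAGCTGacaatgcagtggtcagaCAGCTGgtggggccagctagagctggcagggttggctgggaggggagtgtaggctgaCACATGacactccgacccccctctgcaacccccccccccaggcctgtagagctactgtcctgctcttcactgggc
Musk: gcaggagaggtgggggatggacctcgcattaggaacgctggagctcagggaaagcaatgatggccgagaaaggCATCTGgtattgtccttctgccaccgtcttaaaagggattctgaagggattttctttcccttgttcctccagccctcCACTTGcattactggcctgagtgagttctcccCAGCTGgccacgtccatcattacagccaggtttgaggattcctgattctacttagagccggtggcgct
Chrne: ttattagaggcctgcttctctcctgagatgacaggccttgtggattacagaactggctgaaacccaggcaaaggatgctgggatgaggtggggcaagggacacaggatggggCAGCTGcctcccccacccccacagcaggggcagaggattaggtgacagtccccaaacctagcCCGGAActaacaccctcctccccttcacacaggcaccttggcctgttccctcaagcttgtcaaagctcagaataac
In the Chrna1 window the E-boxes began at -92, -73 and -44 from the start site, and in the Chrng window at -155, -132 and -75. The Musk window held E-boxes at -177, -100 and -68. The Chrne window held a single E-box at -138 and an N-box at -76. The window of Chrnb1 and that of the distal Runx1 start also held 3 E-boxes each, whereas that of Scn4a held none. The window of the other Runx1 start held no E-box and an N-box at -106, so the N-box was not particular to Chrne. These letters are common: of 32851 RefSeq promoter windows of the same length, 66.2% held an E-box, 12.2% held 3 or more, and 12% held an N-box. A match describes the sequence and does not show that a factor binds there.

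Relative depth, taken as the ratio of coverage to FPKM, ran from 6.78 to 13.7 over the 32 libraries, a range of 2.02-fold, and 10399 to 12877 genes reached 1 TPM. Mitochondrial genes took 31.9% to 46.9% of TPM and Rn7s genes 20.8% to 30.5%. Changes are given on the log2(TPM + 1) scale, on which the change of a gene with low TPM comes out too small, as the Col6a2-/- mean less the WT mean, beside the standard error (SE) and limma's Benjamini-Hochberg adjusted p over 12817 tested genes. A gene is said to be called, or to have risen or fallen, where that p was under 0.05. On the deposited scale the median of all tested genes was itself 0.15 higher in Col6a2-/- at 5 weeks, and 91.6% of the genes called were higher. With median-of-ratios scaling that median was -0.01 and the share was 47.9%, with quantile normalization -0.02 and 45.8%, and with the 100 most abundant genes left out of the total 0.04 and 65.3%.

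At 5 weeks, 7 of the 9 genes rose in Col6a2-/- muscle and none fell, where 23.2% of all tested genes rose and 2.14% fell (25.4% called in all). The genes that rose were Chrng, Chrna1, Runx1, Ncam1, Chrnd, Musk and Chrnb1, each in 8 of 8 Col6a2-/- libraries compared with the WT mean of the same sex. Chrne and Scn4a did not pass the test. The median change of the 9 genes was 1.21, against 0.15 over all tested genes. Chrng, Chrnd and Runx1 reached the filter of 1 TPM in 4 libraries through Col6a2-/- libraries, since 0, 1 and 1 of the 16 WT libraries reached it, so the count gives them no independent weight. With a pseudocount of 0.1 TPM the 5-week changes of the genes with low TPM were larger, at 3.79 for Chrng, 2.16 for Runx1 and 2.11 for Chrnd, and stayed called. At 25 weeks 1 gene, Runx1, was called, where 4.47% of all tested genes rose and 0.234% fell (4.7% called in all). As Runx1 reached the filter through Col6a2-/- libraries, the 25-week count gives it no independent weight either.

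**Figure D1:**
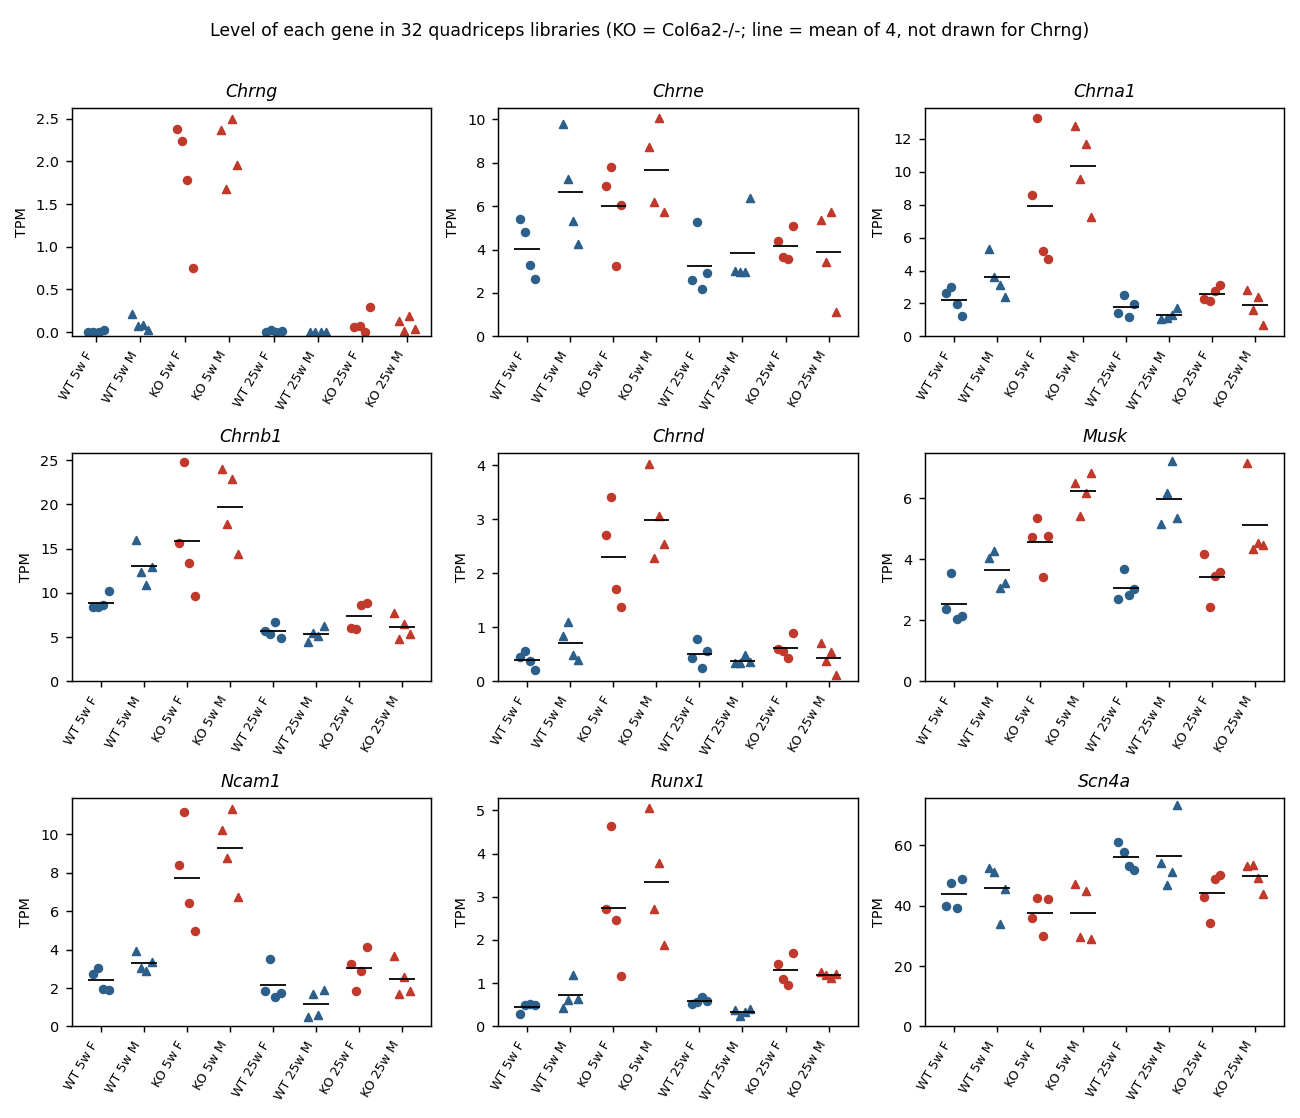
TPM of each of the 9 genes (vertical axes, linear, a scale for each gene) in the 32 libraries, by group; circles are females, triangles males, blue WT, red Col6a2-/-, and lines are means of 4 libraries (not drawn for Chrng). The 5-week Col6a2-/- libraries of Chrng lie between 0.749 and 2.50 TPM, where no other library passes 0.298 TPM, while the genotypes of Chrne and Scn4a overlap at 5 weeks.

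Chrng (ENSMUSG00000026253, chr1:87204657-87212694, plus strand) encodes the gamma subunit that marks the fetal receptor. In 5-week WT females it was listed at 0, 0, 0 and 0.0244 TPM, and in 5-week WT males at 0.217, 0.0773, 0.0856 and 0.0264 TPM. In 5-week Col6a2-/- females it was at 2.38, 2.24, 1.78 and 0.749 TPM, and in males at 2.37, 1.67, 2.50 and 1.96 TPM. Every 5-week Col6a2-/- library lay above every WT library, a separation that 1.18% of tested genes showed in that direction. Since Chrng reached the filter through 5-week Col6a2-/- libraries, that share gives it no independent weight. The change at 5 weeks was 1.46 (SE 0.0931, limma adjusted p = 2.20e-12). No fold is given, since 3 of the 8 WT libraries were listed at 0. At 25 weeks Chrng was listed at 0 in all 4 WT males and at 0, 0.0216, 0 and 0.0142 TPM in WT females. Col6a2-/- females then had 0.0638, 0.0658, 0 and 0.298 TPM, and Col6a2-/- males 0.129, 0.0148, 0.189 and 0.0411 TPM. These levels are low in every library. The male groups did not overlap, as for 13.9% of tested genes in that direction, and the female groups did, where 3.8% of tested genes were apart. The change of 0.13 did not pass the test (limma adjusted p = 0.484).

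Chrne (ENSMUSG00000014609, chr11:70614883-70619216, minus strand) encodes the epsilon subunit of the adult receptor. At 5 weeks its lowest, median and highest TPM were 2.62, 5.07 and 9.79 in the 8 WT libraries and 3.25, 6.56 and 10.1 in the 8 Col6a2-/- libraries. The genotypes overlapped over nearly the whole range. The change was 0.33 with a 95% interval from -0.11 to 0.77 (limma adjusted p = 0.25), an interval that holds both 0 and the 0.65 found for Musk. At 25 weeks WT libraries ran from 2.18 to 6.39 TPM with a median of 2.97, and Col6a2-/- libraries from 1.10 to 5.71 with a median of 4.02. Neither age separated the genotypes.

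The share of Chrng in the summed TPM of Chrng and Chrne describes the balance of the fetal and adult subunit transcripts. At 5 weeks it was 0% to 2.17% in WT libraries, with a median of 0.771%, and 11.0% to 35.5% in Col6a2-/- libraries, with a median of 21.9%. At 25 weeks it was 0% to 0.485% in WT, with a median of 0%, and 0% to 5.55% in Col6a2-/-, with a median of 2.05%. The genotypes did not overlap at 5 weeks and did at 25 weeks. Chrne TPM stayed above Chrng TPM in all 32 libraries.

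**Figure D2:**
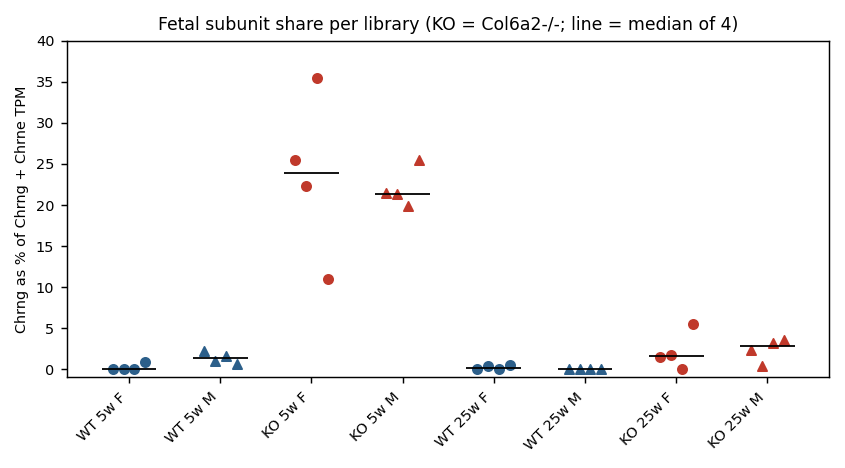
Chrng as a percent of the summed TPM of Chrng and Chrne (vertical axis) in each library, by group; lines are medians of 4 libraries. All 8 of the 5-week Col6a2-/- libraries lie at 11.0% or above, and all 24 others at 5.55% or below.

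Chrna1 (ENSMUSG00000027107, chr2:73563215-73580338, minus strand) encodes the alpha subunit, which forms most of the acetylcholine binding site and is present in both the fetal and the adult receptor. It was at 2.61, 3.004, 1.96 and 1.22 TPM in 5-week WT females and at 5.32, 3.58, 3.13 and 2.41 TPM in 5-week WT males. Col6a2-/- females had 8.61, 13.2, 5.17 and 4.67 TPM, and Col6a2-/- males 12.8, 9.57, 11.7 and 7.28 TPM. Within each sex every Col6a2-/- library was above every WT library, which 8.53% of tested genes showed in females and 9.32% in males. Across the sexes the ranges overlapped, because the highest WT male was above the lowest Col6a2-/- females. The mean of the 8 Col6a2-/- libraries was 3.14-fold the WT mean, and the change was 1.36 (SE 0.181, limma adjusted p = 3.10e-06). At 25 weeks WT had 1.04 to 2.50 TPM and Col6a2-/- 0.702 to 3.12 TPM, and the change of 0.32 did not pass the test (limma adjusted p = 0.345).

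Chrnd (ENSMUSG00000026251, chr1:87190607-87200070, plus strand) encodes the delta subunit and lies just upstream of Chrng on the same strand. It was at 0.443, 0.560, 0.372 and 0.214 TPM in 5-week WT females and at 0.833, 1.10, 0.494 and 0.398 TPM in WT males. Col6a2-/- females had 2.70, 3.40, 1.71 and 1.37 TPM, and Col6a2-/- males 4.03, 2.28, 3.07 and 2.53 TPM. Every Col6a2-/- library lay above every WT library at 5 weeks, as for 1.18% of tested genes. Since Chrnd reached the filter through 5-week Col6a2-/- libraries, that share gives it no independent weight. The mean ratio was 4.78 and the change 1.21 (SE 0.12, limma adjusted p = 2.74e-08). At 25 weeks WT had 0.243 to 0.790 TPM and Col6a2-/- 0.115 to 0.895 TPM, a change of 0.08 that did not pass the test (limma adjusted p = 0.771) and that was -0.072 after quantile normalization.

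Chrnb1 (ENSMUSG00000041189, chr11:69784036-69795943, minus strand) encodes the beta subunit and had the highest TPM of the 5 subunit genes in the mean of each age and genotype. At 5 weeks its lowest, median and highest TPM were 8.38, 10.5 and 15.99 in WT and 9.67, 16.7 and 24.8 in Col6a2-/-. The genotypes overlapped, in each sex as well as in both together. The mean ratio was 1.62 and the change 0.62 (SE 0.136, limma adjusted p = 0.00147). At 25 weeks WT ran from 4.40 to 6.71 TPM and Col6a2-/- from 4.84 to 8.86 TPM, and the change of 0.24 did not pass the test (limma adjusted p = 0.353).

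Musk (ENSMUSG00000057280, chr4:58285960-58374303, plus strand) encodes the receptor tyrosine kinase through which nerve-derived agrin clusters acetylcholine receptors. At 5 weeks it was at 2.39, 3.57, 2.04 and 2.15 TPM in WT females and at 4.75, 5.36, 3.43 and 4.77 TPM in Col6a2-/- females. In males it was at 4.03, 4.26, 3.07 and 3.24 TPM in WT and at 6.49, 5.42, 6.17 and 6.83 TPM in Col6a2-/-. The male genotypes did not overlap, as for 9.32% of tested genes in that direction, and in females 1 WT library was above 1 Col6a2-/- library. The mean ratio was 1.75 and the change 0.65 (SE 0.107, limma adjusted p = 5.42e-05). Musk was also higher in males than in females over both genotypes and ages, by 0.51 (SE 0.0754, limma adjusted p = 5.01e-05), and was the only one of the 9 genes called for sex, where 3.05% of tested genes were called. At 25 weeks the lowest, median and highest TPM were 2.70, 4.41 and 7.22 in WT and 2.43, 4.26 and 7.16 in Col6a2-/-, and the change of -0.04 did not pass the test (limma adjusted p = 0.859).

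Ncam1 (ENSMUSG00000039542, chr9:49502136-49798925, minus strand) encodes the neural cell adhesion molecule, which adult fibres hold mainly at the synapse and which denervated or regenerating fibres, satellite cells and some Schwann cells also carry. It was at 2.75, 3.06, 1.96 and 1.92 TPM in 5-week WT females and at 3.92, 3.03, 2.91 and 3.33 TPM in WT males. Col6a2-/- females had 8.42, 11.2, 6.42 and 4.95 TPM, and Col6a2-/- males 10.2, 8.79, 11.3 and 6.76 TPM. All 8 Col6a2-/- libraries lay above all 8 WT libraries, which 1.18% of tested genes showed at 5 weeks. The mean ratio was 2.98 and the change 1.28 (SE 0.168, limma adjusted p = 2.72e-06). At 25 weeks WT had 0.470, 1.72 and 3.50 TPM as lowest, median and highest, and Col6a2-/- had 1.70, 2.74 and 4.16 TPM. The 25-week change was 0.53 and did not pass the test (limma adjusted p = 0.0634), but it passed under 4 of 10 other settings. It also passed (0.0323 to 0.0431) without any 1 of 25-week WT female 2, WT male 4, Col6a2-/- female 2 and Col6a2-/- male 2, or of 5-week Col6a2-/- females 2 and 4.

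Runx1 (ENSMUSG00000022952, chr16:92601466-92826149, minus strand) encodes a transcription factor that blood cells express and that denervated muscle is known to induce. It was at 0.296, 0.503, 0.513 and 0.499 TPM in 5-week WT females and at 0.429, 0.606, 1.20 and 0.632 TPM in WT males. Col6a2-/- females had 2.72, 4.65, 2.46 and 1.18 TPM, and Col6a2-/- males 5.04, 2.71, 3.77 and 1.87 TPM. In each sex the genotypes did not overlap, as for 8.53% of tested genes in females and 9.32% in males in that direction. Since Runx1 reached the filter through Col6a2-/- libraries, those shares give it no independent weight. Across the sexes 1 WT male was just above the lowest Col6a2-/- female. The mean ratio was 5.22 and the change 1.30 (SE 0.138, limma adjusted p = 8.96e-08).

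Runx1 was the only one of the 9 genes called at 25 weeks. WT females had 0.524, 0.558, 0.681 and 0.589 TPM, and WT males 0.375, 0.250, 0.339 and 0.400 TPM. Col6a2-/- females had 1.44, 1.09, 0.967 and 1.69 TPM, and Col6a2-/- males 1.25, 1.18, 1.13 and 1.20 TPM. All 8 Col6a2-/- libraries lay above all 8 WT libraries, as for 0.663% of tested genes. Since Runx1 reached the filter through Col6a2-/- libraries, that share gives it no independent weight. The mean ratio was 2.68 and the change 0.62 (SE 0.138, limma adjusted p = 0.0091), and it stayed called under the 9 other settings that tested it (0.47 to 1.28) and with each of the 32 libraries left out.

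Scn4a (ENSMUSG00000001027, chr11:106318592-106353288, minus strand) encodes the sodium channel that carries the action potential of the adult muscle fibre, and it was the most abundant of the 9 genes. At 5 weeks its lowest, median and highest TPM were 34.1, 46.5 and 52.6 in WT and 29.1, 39.1 and 47.3 in Col6a2-/-. The ranges overlapped widely and 7 of 8 Col6a2-/- libraries were below the WT mean of their sex. The change was -0.26 with a 95% interval from -0.50 to -0.02 (limma adjusted p = 0.104). It was -0.46 and called after median-of-ratios scaling (limma adjusted p = 0.00101), and it was called under 3 other settings and without 5-week WT male 3 (limma adjusted p = 0.0447). At 25 weeks WT ran from 46.8 to 73.5 TPM and Col6a2-/- from 34.4 to 53.5 TPM, with 8 of 8 Col6a2-/- libraries below the WT mean of their sex. In 25-week females the genotypes did not overlap, with 52.0 to 61.3 TPM in WT and 34.4 to 50.2 TPM in Col6a2-/-, as for 0.999% of tested genes in that direction, and in males they did. The 25-week change was -0.25 (limma adjusted p = 0.23), and -0.39 and called after median-of-ratios scaling (limma adjusted p = 0.012).

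**Figure D3:**
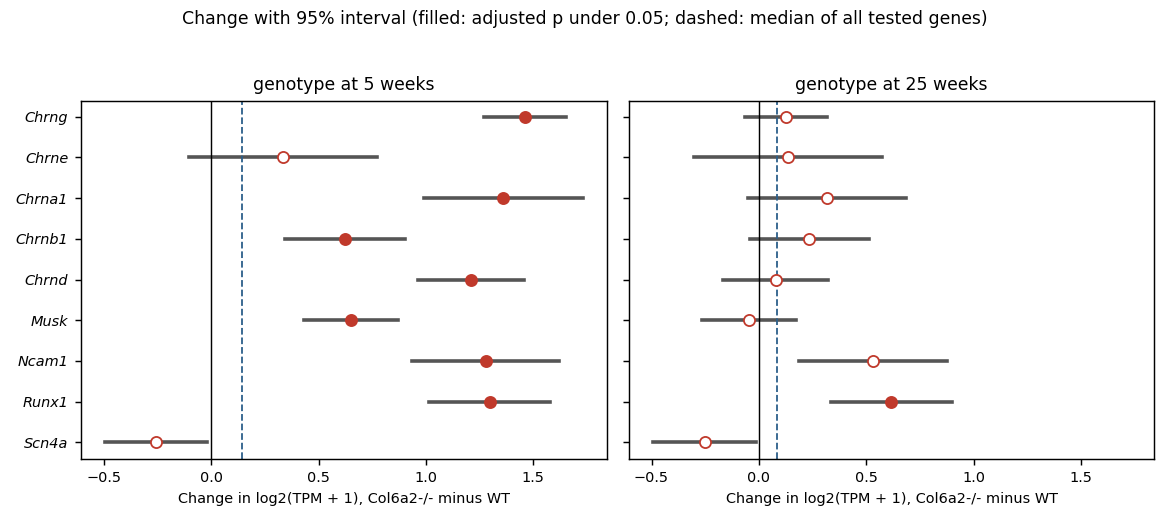
Change in log2(TPM + 1), Col6a2-/- minus WT, with its 95% interval (horizontal axis) for the 9 genes at 5 weeks (left) and 25 weeks (right); filled points were called by limma and the dashed line is the median of all tested genes. At 5 weeks 7 points are filled, from 0.62 for Chrnb1 to 1.46 for Chrng, and at 25 weeks only Runx1 at 0.62.

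The difference between the ages was tested as genotype by age, the 25-week change minus the 5-week change. Chrng (-1.34, SE 0.132, limma adjusted p = 1.34e-07), Chrnd (-1.13, SE 0.169, 2.03e-04) and Musk (-0.70, SE 0.151, 0.0218) were called, where 0.492% of tested genes were called in all, 0.421% in that direction and 0.0702% in the other. With a pseudocount of 0.1 TPM the values were -2.99 for Chrng and -1.95 for Chrnd. The change of these 3 genes was smaller at 25 weeks than at 5 weeks beyond the spread between libraries. Chrng and Chrnd reached the filter through 5-week Col6a2-/- libraries, and 0 of the 25-week Col6a2-/- libraries had 1 TPM of either. The count of genes called therefore gives these genes no independent weight. Chrna1 had a value of -1.04 that did not pass (limma adjusted p = 0.0602), and it passed under 6 of 9 other settings. It also passed (0.011 to 0.0494) without any 1 of 5-week WT female 2, WT male 1, Col6a2-/- females 3 and 4 and male 4, or of 25-week Col6a2-/- male 1. Ncam1 (-0.75), Runx1 (-0.68), Chrnb1 (-0.39) and Chrne (-0.20) did not pass, so a difference between ages is not shown for them. Runx1 passed under 2 of 8 other settings and without 5-week Col6a2-/- female 4 (limma adjusted p = 0.00792) or male 4 (0.0422). For Scn4a the value was 0.0035 with a 95% interval from -0.33 to 0.34.

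Age itself was compared within each genotype, as 25 minus 5 weeks. In WT muscle Chrnb1 (-0.86), Ncam1 (-0.60) and Chrna1 (-0.58) fell and Musk rose by 0.40, where 15.3% of tested genes fell and 4.47% rose (19.8% called in all, limma). The call of Chrna1 (limma adjusted p = 0.0219) was lost under 2 of 9 other settings and without either of 2 WT libraries, 5-week female 2 (0.0523) or 5-week male 1 (0.0612). Scn4a had a value of 0.32 in WT that did not pass (limma adjusted p = 0.0524). It passed under 6 of 9 other settings, had an adjusted p of 0.05 to the digits given with a pseudocount of 0.1 TPM, and passed, at 0.0395 to 0.0494, without any 1 of 11 libraries: 5-week WT males 1 and 2, 25-week WT male 2, 5-week Col6a2-/- females 2, 3 and 4 and males 1 to 4, or 25-week Col6a2-/- female 2. In Col6a2-/- muscle 8 of the 9 genes fell and Scn4a rose by 0.32, where 28.8% of tested genes fell and 5.41% rose (34.2% called in all). Chrng and Chrnd, among the 8, reached the filter through 5-week Col6a2-/- libraries, so the count gives them no independent weight. The values were -1.62 for Chrna1, -1.40 for Chrng, -1.34 for Ncam1, -1.25 for Chrnb1, -1.23 for Chrnd and -0.79 for Runx1. Their order depends on the pseudocount: with 0.1 TPM in place of 1, Chrng had -3.44, Chrnd -2.16 and Chrna1 -2.004. Ncam1 in WT likewise moved from -0.60 to -0.92. Musk (-0.30, limma adjusted p = 0.0306) was not called after median-of-ratios scaling (-0.14, limma adjusted p = 0.293) and under 4 of 8 other settings. Its call was also lost (0.0523 to 0.0868) without any 1 of 5-week Col6a2-/- females 1 and 2 and male 1, or of 25-week Col6a2-/- female 2 and males 2, 3 and 4. The call of Scn4a in Col6a2-/- (limma adjusted p = 0.0329) was lost with no filter on TPM (0.0589). It was also lost (0.0507 to 0.0768) without any 1 of 5-week Col6a2-/- females 1 and 3 and males 2 and 4, or of 25-week Col6a2-/- females 3 and 4 and males 1 and 2. Chrne (-0.66, limma adjusted p = 0.0183) was not called without 25-week Col6a2-/- male 4, which had 1.10 TPM (-0.48, limma adjusted p = 0.0569). The 2 comparisons by age share libraries with the comparisons of genotype.

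The 8 groups were ordered by mean TPM for each gene. For Chrna1, Chrnb1, Chrnd, Chrng, Ncam1 and Runx1 the 5-week Col6a2-/- males came first and the 5-week Col6a2-/- females second. Neighbours in that order overlapped in range at most steps. The ranges were apart at 1 step each, below the 5-week Col6a2-/- females for Chrnd, Chrng and Ncam1, between the sexes of 5-week WT for Chrnb1, and between 25-week and 5-week WT females for Runx1. For Musk the order began with 5-week Col6a2-/- males at 6.23 TPM, 25-week WT males at 5.98 TPM and 25-week Col6a2-/- males at 5.12 TPM, and ended with 5-week WT females at 2.54 TPM. For Scn4a the 25-week WT groups came first at 56.4 and 56.1 TPM and the 5-week Col6a2-/- groups last at 37.8 and 37.7 TPM. No neighbours were apart for Chrna1, Chrne, Musk and Scn4a.

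The genotype change was also taken in each sex. At 5 weeks it was 1.41 in females and 1.31 in males for Chrna1, 1.43 and 1.50 for Chrng, 1.29 and 1.31 for Runx1, and 0.46 and 0.21 for Chrne. Genotype by sex was called for none of the 9 genes, 0 of which had an unadjusted p under 0.05, and for 2 of all 12817 (0.0156%), with 206 at an unadjusted p under 0.05 (limma). The 95% interval of the difference included 0 for each of the 9, and its bounds for Chrna1 were -0.63 and 0.41.

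Among the 5-week Col6a2-/- libraries the genes tended to be high in the same mice. Female 2 had the highest TPM of its group for 8 of the 9 genes, and female 4 the lowest for 6. In males, library 1 was highest for 5 genes and library 4 lowest for 6. The same libraries stood at the ends of their groups in the number of genes at 1 TPM or more, with 12877 in female 2, 10903 in female 4, 12610 in male 1 and 11552 in male 4. In the ratio of coverage to FPKM, female 2 was lowest of its group (7.45), and female 4 (13.7) and male 4 (11.4) were highest of theirs. The part of these differences in the levels of the 9 genes was not tested. Over all 32 libraries Chrna1 and Chrnd correlated at r = 0.96, and at 0.86 after each group's mean was subtracted. Chrne followed Chrna1 within groups (r = 0.84) but not Runx1 (r = 0.15), and Musk followed Runx1 at 0.05. These are Pearson r on log2(TPM + 1) over 32 libraries that share a total of TPM, given as a description.

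**Figure D4:**
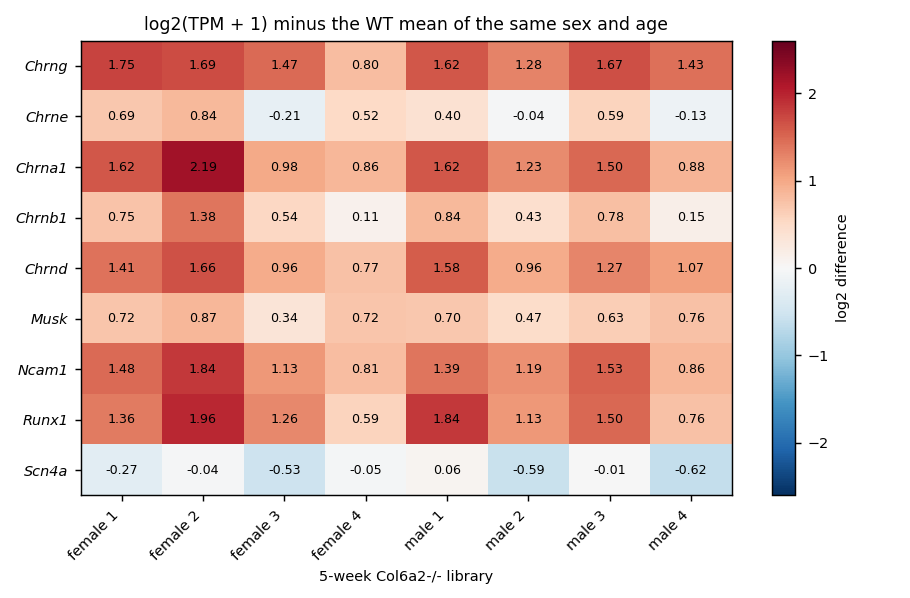
log2(TPM + 1) of each gene (rows) in each 5-week Col6a2-/- library (columns) minus the mean of WT libraries of the same sex and age, with red above and blue below. Chrna1 reaches 2.19 in female 2 and 0.86 in female 4, and Scn4a lies between -0.62 and 0.06.

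The genes most alike in pattern were taken as the 3 with the highest Pearson r over the 32 libraries. For Chrne they were Colq (r = 0.93, and 0.91 after subtracting group means), Ufsp1 (0.91 and 0.87) and Crym (0.90 and 0.91). For Chrng they were Aldh3a1 (0.99 and 0.85), Mymx (0.99 and 0.83) and Plekhh1 (0.98 and 0.79), of which Mymx encodes a micropeptide of myoblast fusion. Chrnd was most like Col19a1 (0.97), Plekhh1 (0.96) and Mymx (0.95). Chrna1 was most like Atp13a3, Ankrd10 and Galnt7 (0.95, 0.95 and 0.94), and Chrnb1 most like P3h1, Fbxl22 and Zim1 (0.96 each). Ncam1 was most like Ifitm3, Slc29a1 and Col8a1 (0.94, 0.94 and 0.93), and Runx1 most like Pld4, Sh3d19 and Serpinb1a (0.95 each). For Scn4a, Hipk3 came first (0.91), and for Musk, Serinc3 (0.84). For Chrne the r hardly moved when group means were subtracted, and for Chrng it was lower.

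Genes near the members were looked up because the use of strand is not given in the sources used here. Chrnd and Chrng neighbour each other, and Eif4e2, the next gene on the other side of Chrng, was at 7.58 to 12.4 TPM in 5-week WT and 8.97 to 13.9 TPM in Col6a2-/-. Its change of 0.14 did not pass the test (limma adjusted p = 0.26). The genes that overlap Chrne, Ncam1 and Runx1 on the other strand were at no more than 0.0409, 0 and 0.0606 TPM in the 5-week libraries.

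The other 11 nicotinic receptor subunit genes, which neurons and other cells use, did not reach the filter and were not tested. The highest group mean among them at 5 weeks was that of Chrna9, at 0.176 TPM in WT and 0.436 TPM in Col6a2-/-. Chrna3, Chrna6, Chrnb3 and Chrnb4 were listed at 0 in all 32 libraries.

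Of 20 other genes of the postsynaptic apparatus, 19 were tested. At 5 weeks 6 of the 19 rose and none fell, where 23.2% of all tested genes rose and 2.14% fell. The median change was 0.26 against 0.15 over all genes. The largest were Agrn (0.44, limma adjusted p = 0.00876), which encodes agrin, Colq (0.41), the collagen tail that anchors acetylcholinesterase, Lama4 (0.37), a laminin chain of the synaptic basal lamina, and Phldb2 (0.32). With median-of-ratios scaling and with quantile normalization none of the 19 was called, and with the 100 most abundant genes left out of the total 1 was. Rapsn, which encodes the protein that anchors the receptor, had a change of 0.13 (limma adjusted p = 0.272), and Dok7, the activator of the Musk kinase, 0.11 (0.356). At 25 weeks limma called none of the 19, and 3 had an unadjusted p under 0.05.

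Of 16 other genes known to respond to denervation, 14 were tested. At 5 weeks 10 rose and 1 fell, with a median change of 0.70, where 23.2% of all tested genes rose and 2.14% fell. The largest were Sln (4.77), which encodes the calcium pump regulator sarcolipin, the embryonic myosin gene Myh3 (2.37), the cell cycle inhibitor Cdkn1a (1.98) and Myog (1.65), which encodes myogenin. Sln was at 0.471 to 5.53 TPM in 5-week WT and 16.9 to 95.8 TPM in Col6a2-/-, and Myh3 at 1.07 to 1.87 and 5.63 to 16.2 TPM. Myog was at 2.86 to 7.33 TPM in WT and 6.66 to 26.7 TPM in Col6a2-/-. Fgfbp1, which encodes a binding protein of fibroblast growth factors, fell by 0.70. Under the 4 other scalings 9 or 10 genes rose and 1 to 3 fell. At 25 weeks Sln (1.40) and Myh3 (0.74) rose and Fgfbp1 fell by 0.82, where 4.47% of all tested genes rose and 0.234% fell. By the test of genotype by age 7 of the 14 had a smaller change than at 5 weeks, where 0.421% of all tested genes were called in that direction. The tested members of that list that were not called at 5 weeks were Dach2 (-0.05), Hdac9 (-0.24) and Myh8 (-0.13). Myh3, Myog, Cdkn1a and Gadd45a are also known from regenerating or stressed muscle.

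**Figure D5:**
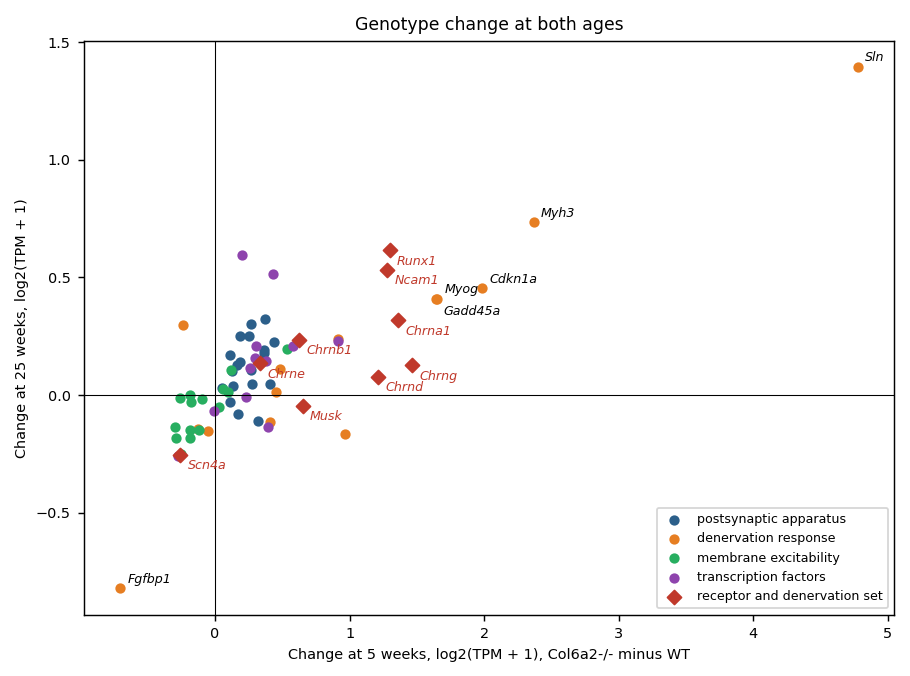
Change in log2(TPM + 1) at 5 weeks (horizontal axis) and at 25 weeks (vertical axis) of the 9 genes (red diamonds) and of 4 lists of related genes. Sln lies farthest out at 4.77 and 1.40, Runx1 and Ncam1 lie highest among the 9 genes, and Chrng and Chrnd lie near 0 on the vertical axis.

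Of the 12 transcription factors set beside Runx1, 7 rose at 5 weeks, where 23.2% of all tested genes rose. The largest were Id2 (0.91), an inhibitor of E-box binding factors, Myod1 (0.58), Id3 (0.43) and Mef2a (0.40). Myf5, 1 of the 7, reached the filter through Col6a2-/- libraries, as 1 of 16 WT libraries had 1 TPM. Only Id2 was called under all 4 other scalings, and with median-of-ratios scaling 2 rose and 1 fell. At 25 weeks Id3 (0.51) was called, and it was not under 3 of the 4 other scalings. Cbfb, which encodes the partner of Runx1, had a change of -0.27 at 5 weeks (limma adjusted p = 0.16).

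Of 15 genes of membrane excitability set beside Scn4a, 2 fell at 5 weeks, Kcnj11 (-0.29) and Fxyd1 (-0.18), where 2.14% of all tested genes fell. After median-of-ratios scaling 9 of the 15 fell. The chloride channel gene Clcn1 had -0.29 (limma adjusted p = 0.0832). At 25 weeks none was called on the deposited scale (limma, and 0 at an unadjusted p under 0.05), and 4 fell after median-of-ratios scaling.

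Markers of other cell types moved with genotype too. Over all tested genes 23.2% rose and 2.14% fell at 5 weeks, and 4.47% rose and 0.234% fell at 25 weeks. All 9 tested macrophage and blood cell markers (of 10 listed) rose at both ages, and their summed TPM was 55.3 to 93.2 in 5-week WT, 93.6 to 324 in 5-week Col6a2-/-, 38.5 to 110 in 25-week WT and 103 to 193 in 25-week Col6a2-/-. Cd14 and Itgax reached the filter through Col6a2-/- libraries, as 0 of 16 WT libraries had 1 TPM of either, so the count gives them no independent weight, and the other 7 rose at both ages. The T cell marker Cd3e was at 0 in 23 of 32 libraries. These sums did not overlap at 5 weeks and did at 25 weeks. Under the 4 other scalings 8 or 9 of these markers rose. At 5 weeks 4 of 10 fibre markers fell, among them Pygm (-0.39), and 2 to 6 did under the other scalings. At 25 weeks none of the 10 was called on the deposited scale (limma, with 4 at an unadjusted p under 0.05). Then 5 fell with median-of-ratios scaling, 4 without the 100 most abundant genes, 1 with quantile normalization and 0 without mitochondrial and Rn7s genes. Of 7 satellite cell markers 4 were tested and 2 rose at 5 weeks and 1 at 25 weeks, with summed TPM of 13.7 to 21.1 in 5-week WT and 17.2 to 29.1 in Col6a2-/-, and of 10.6 to 19.2 and 14.1 to 18.8 at 25 weeks. At 25 weeks 0 or 1 rose under the other scalings, and 1 fell under 2 of them. On the deposited scale the satellite cell markers that rose were Sdc4 and Vcam1 at 5 weeks and Vcam1 at 25 weeks. The defining marker Pax7 was above 0 in every library and reached 0.682 TPM. Pax7, Calcr and Chrdl2 did not reach the filter and were not tested. Their 5-week means were 0.465, 0.346 and 0.221 TPM in WT and 0.429, 0.333 and 0.204 TPM in Col6a2-/-. Of 10 Schwann cell markers 7 were tested and none was called at either age (limma, with 1 at an unadjusted p under 0.05 at 5 weeks and 0 at 25 weeks), with sums of 34.7 to 198 in 5-week WT and 39.4 to 114 in Col6a2-/-, and of 18.2 to 38.4 and 11.3 to 44.7 at 25 weeks. Of 8 fibroblast markers 5 rose at 5 weeks and 4 at 25 weeks, with sums of 610 to 1453 in 5-week WT, 560 to 1983 in 5-week Col6a2-/-, 271 to 498 in 25-week WT and 467 to 756 in 25-week Col6a2-/-. Under the other scalings 3 to 5 fibroblast markers rose at 5 weeks and 3 or 4 at 25 weeks. Of 6 endothelial markers 3 rose at 5 weeks and 0 to 2 did under the other scalings, and none was called at 25 weeks, when 1 had an unadjusted p under 0.05 (limma). None of 6 tenocyte markers was called at either age, with 1 at an unadjusted p under 0.05 at each, and 1 rose at 25 weeks under 2 of the 4 other scalings. The part of these cells in the changes of Runx1, Ncam1 and the other genes was not tested.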

How the data were processed

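RNA sequencing of 32 quadriceps libraries was analysed from 1 deposited table per library. Per the submitters' processing notes the tools were FastQC, MultiQC, Trimmomatic, HISAT2, SAMtools and StringTie, with the builds GRCm38 and mm10. The annotation release and the use of strand are not given in the sources used here. Per the file headers, the authors gave each gene a coverage (mean read depth, a signal not scaled for depth), an FPKM and a TPM. TPM was summed per gene ID and tested, and the authors' coverage and FPKM served only for relative depth. The tables' coordinates are on GRCm38.

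The 12817 genes that reached 1 TPM in 4 or more libraries were fitted as log2(TPM + 1), with 8 group means as coefficients, in limma 3.58.1 (eBayes with trend, two-sided, sexes weighted equally, Benjamini-Hochberg) in R 4.3.3. The script was tested on simulated data. Python 3.11.15, pandas 2.3.3, numpy 2.4.6 and matplotlib 3.10.9 were also used. The labels say that separate mice were used, with 1 library each, and no tables were identical (highest r 0.984). Same-numbered libraries of WT and Col6a2-/- tended to deviate together, though not in every pair. Replicate numbers are not said to mark a shared litter or batch, so no block was used in the main model. Alternatives were the filter, the pseudocount, 4 scalings, a replicate block, library weights, a fit within each age and each library left out.

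The 9 genes, the related lists (other nicotinic subunits, postsynaptic apparatus, denervation response, membrane excitability, transcription factors) and the markers (muscle fibre, satellite cell, Schwann cell, macrophage and blood cell, fibroblast, tenocyte, endothelium) were chosen with earlier results of these data known. Of each list up to 4 called genes with the largest change at each age are named, and for each of the 9 genes the 3 most alike by Pearson r. Other genes named (Rapsn, Dok7, Cbfb, Clcn1, Dach2, Hdac9, Myh8, Gadd45a, Chrna9, Pygm, Myf5, Cd14, Itgax, Cd3e, Pax7, Calcr, Chrdl2, Sdc4, Vcam1) were chosen after their values were seen. Some results of the membrane excitability list are not reported here.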

Additional observations from a re-analysis of the deposited data

Results flagged for a closer look

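Of the 71 sets of 4 libraries examined, 6 had a library set apart from the other 3 by a gap large for the range of its group, and chance flags about 1 in 20 groups. These were the highest Chrnb1 among 5-week WT females (10.2 TPM), the highest Chrne among 25-week WT males (6.39 TPM), the highest Chrng among 5-week WT females (0.0244 TPM, the others being listed at 0), the highest Musk among 25-week Col6a2-/- males (7.16 TPM), the highest Ncam1 among 25-week WT females (3.50 TPM) and the lowest Runx1 among 5-week WT females (0.296 TPM).

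The genotype change differed between the ages, by the limma test of that difference, for Chrnd (-1.13, 25 minus 5 weeks), Chrng (-1.34) and Musk (-0.70). For all 3 genes the 5-week change was positive, and the 25-week change did not pass the test. Chrnd and Chrng had reached the filter through 5-week Col6a2-/- libraries, which favours such a difference.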

How the results depend on the processing

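All 7 genes called at 5 weeks kept their direction and call under every setting that tested them and with each of the 32 libraries left out. The exception in number was the filter of 5 TPM in 4 libraries, under which 4 of the 9 genes were called because Chrnd, Chrng and Runx1 were not tested. Under that filter the count of all genes called was 1553 at 5 weeks, 344 at 25 weeks, 32 for genotype by age, 1441 for age in WT, 2263 for age in Col6a2-/- and 258 for sex, out of fewer genes tested, and 0 of the 9 were called at 25 weeks and 1 for genotype by age. Fits within 1 age called 1907 genes at 5 weeks and 1177 at 25 weeks. With no filter 343 genes were called at 25 weeks, 115 for genotype by age and 5 for genotype by sex. Median-of-ratios scaling gave 1384 genes and 3 of the 9 at 25 weeks, 127 for genotype by age and 803 for sex. Quantile normalization gave 163 genes and 5 of the 9 for genotype by age and 828 for sex. Leaving the 100 most abundant genes out of the total gave 1084 genes and 3 of the 9 at 25 weeks, 115 for genotype by age and 782 for sex. Library weights gave 1967 genes and 2 of the 9 at 25 weeks, 241 and 5 for genotype by age, 4166 for age in WT, 925 for sex and 0 for genotype by sex. A pseudocount of 0.1 TPM gave 2 of the 9 at 25 weeks. The share of calls that were higher was 95.02% at 25 weeks, 22.6% for age in WT and 15.8% for age in Col6a2-/- on the deposited scale. It was 51.4%, 50.2% and 50.5% with median-of-ratios scaling, 57.0%, 51.4% and 53.2% with quantile normalization, and 75.3%, 40.5% and 40.3% without the 100 most abundant genes, and for age in WT 50.8% without mitochondrial and Rn7s genes. The cause of these differences was not tested. A low TPM, as for Chrng, Chrnd and Runx1, rests on few reads, and read counts were not used here.

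Values that changed sign had not passed the test: after quantile normalization Chrnd had -0.072 at 25 weeks, and with age in WT Chrnd had 0.082 and Runx1 0.052. Scn4a for genotype by age had -0.061 when rescaled without mitochondrial and Rn7s genes, and -0.052 to 0.070 with 1 library left out. Musk at 25 weeks had -0.12 to 0.013 with 1 library left out, the latter without Col6a2-/- female 2.

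Leaving out 1 library at a time gave 270 to 983 genes called at 25 weeks and 1 or 2 of the 9, 49 to 229 and 3 to 5 of the 9 for genotype by age, and 327 to 693 for sex. The count at 25 weeks, 603 with all libraries, moved by over 1.5 times without 25-week WT female 4 (326), WT male 2 (366), WT male 3 (354), Col6a2-/- female 1 (319), female 4 (365), male 1 (270) or male 3 (388), and without 5-week Col6a2-/- female 2 (983) or female 4 (967). That for genotype by age moved so without 5-week Col6a2-/- female 4 (229) and that for sex without 5-week Col6a2-/- female 2 (693).

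Replicate numbers are not said to pair the mice. In deviations from group means, same-numbered WT and Col6a2-/- libraries had a median r of 0.104, against -0.0286 for different numbers. Of 16 same-numbered pairs 8 correlated above 0.1 (-0.0612 to 0.234). Among 4 candidates each, 8 of 16 WT and 9 of 16 Col6a2-/- libraries correlated best with their own number. What same-numbered libraries share was not tested. With the replicate block 3293 genes and 7 of the 9 were called at 5 weeks, 658 and 1 at 25 weeks, and 66 and 4 for genotype by age, Chrna1 being added (limma adjusted p = 0.0358). The block changed no other call of the 9 genes.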
